A study of Homo sapiens with 29 samples.

Results

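PDGFA and 9 further genes, SKOR1, NFATC1, MN1, RFX4, FLRT2, DHH, HRK, SIM2 and HELT, lie under wide peaks of the chromatin remodeller INO80 that lack the transcription factor YY1 in at least 1 of the liver cancer cell lines HepG2 and Huh7. They are 10 of 19811 protein-coding genes annotated on hg19. The members were chosen from the INO80 and YY1 peaks themselves: PDGFA, SKOR1, NFATC1 and MN1 carry some of the widest INO80 peaks without YY1 in HepG2, and the other 6 genes carry them in Huh7. The widths of these INO80 peaks, and the absence of YY1 in the line that chose a gene, are therefore a description and not a finding. The narrowest INO80 peak chosen in HepG2 was that of MN1, with 5893 bp, and the next one without YY1, at UNCX, had 5776 bp. In Huh7 the narrowest was that of HELT, with 3564 bp, followed by 3372 bp at GAD1.

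Chromatin immunoprecipitation with sequencing (ChIP-seq) mapped INO80 from 3 libraries in HepG2 and 2 in Huh7, the subunit MCRS1 and the ATPase RUVBL2 from 2 libraries in each line, the ATPase RUVBL1 from 2 in HepG2, and YY1 from 2 in Huh7. All these cells were untreated, per the labels. For YY1 in HepG2, reads from ENCODE were passed through the same pipeline, so a difference in YY1 between the lines cannot be told apart from a difference between the sources of the libraries. Each factor has 1 list of peak positions per line with no height, so no value below has a replicate error and no test was possible, and the depth is unknown.

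INO80 is the ATPase of a large complex that slides nucleosomes and exchanges histones, and MCRS1, RUVBL1 and RUVBL2 are subunits of it, the RUVBL pair being shared with other complexes. YY1 binds DNA by zinc fingers and is found both in the INO80 complex and apart from it. INO80 is best known at the starts of active genes, where it helps to position nucleosomes. PDGFA encodes a chain of platelet-derived growth factor, a ligand of receptor tyrosine kinases on mesenchymal cells. SKOR1, NFATC1, MN1, RFX4, SIM2 and HELT encode regulators of transcription, FLRT2 and DHH encode signalling proteins of the cell surface and of the secreted Hedgehog family, and HRK encodes a protein that promotes cell death.

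The DNA that YY1 covered at PDGFA in Huh7 is rich in G and C, and 3 of the 5 YY1 peaks under INO80 there hold no copy of the YY1 core motif. The stretches below are on the plus strand of hg19, 5′ to 3′, and capitals mark the core letters GCCAT, read on either strand (ATGGC on the strand printed). The first 3 come from YY1 peaks in Huh7 that lie under the wide INO80 peak of PDGFA, and the fourth is the whole RUVBL2 peak inside it. The fifth is the YY1 peak in HepG2 that lies in an intron of PDGFA outside INO80. Those of MN1 and NFATC1 are YY1 peaks in Huh7 at sites where HepG2 had INO80 and no YY1. RFX4 and DHH give the centre of an INO80 peak without YY1 in Huh7. DHH lies on the minus strand, so the exon end in its label is the end on the strand printed. In the direction of transcription it is the start of that exon.
PDGFA, YY1 in Huh7, intronic, centre of the peak, chr7:556483-556782: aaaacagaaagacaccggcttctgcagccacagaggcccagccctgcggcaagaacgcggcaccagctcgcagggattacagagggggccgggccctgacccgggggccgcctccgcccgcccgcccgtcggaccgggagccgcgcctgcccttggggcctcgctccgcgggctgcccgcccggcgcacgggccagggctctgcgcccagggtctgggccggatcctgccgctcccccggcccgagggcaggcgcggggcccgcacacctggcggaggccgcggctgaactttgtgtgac
PDGFA, YY1 in Huh7, over a coding exon, whole peak, chr7:557819-558110: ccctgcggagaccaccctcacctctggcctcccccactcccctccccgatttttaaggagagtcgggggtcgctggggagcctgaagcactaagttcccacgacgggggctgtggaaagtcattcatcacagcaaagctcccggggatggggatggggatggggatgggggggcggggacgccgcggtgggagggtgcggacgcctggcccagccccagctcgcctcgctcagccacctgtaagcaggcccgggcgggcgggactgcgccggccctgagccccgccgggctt
PDGFA, YY1 in Huh7, upstream of the start in an exon of the divergent PDGFA-DT, centre of the peak, chr7:561783-562082: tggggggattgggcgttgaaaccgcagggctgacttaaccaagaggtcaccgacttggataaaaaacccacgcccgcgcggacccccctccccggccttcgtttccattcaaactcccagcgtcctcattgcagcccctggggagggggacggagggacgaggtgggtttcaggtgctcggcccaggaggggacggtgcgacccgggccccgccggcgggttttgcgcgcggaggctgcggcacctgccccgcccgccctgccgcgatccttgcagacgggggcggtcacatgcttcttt
PDGFA, RUVBL2 in Huh7, upstream of the start in the same exon, whole peak, chr7:560120-560300: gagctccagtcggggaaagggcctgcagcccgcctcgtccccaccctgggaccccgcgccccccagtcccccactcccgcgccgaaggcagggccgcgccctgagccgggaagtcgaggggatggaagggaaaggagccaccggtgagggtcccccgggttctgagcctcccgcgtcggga
PDGFA, YY1 in HepG2, intronic, whole peak, chr7:543256-543519: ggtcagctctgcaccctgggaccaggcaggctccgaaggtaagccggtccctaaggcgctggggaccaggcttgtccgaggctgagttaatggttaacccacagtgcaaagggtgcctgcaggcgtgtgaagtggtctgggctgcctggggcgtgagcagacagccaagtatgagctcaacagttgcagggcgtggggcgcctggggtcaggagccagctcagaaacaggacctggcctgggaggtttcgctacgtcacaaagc
MN1, YY1 in Huh7, upstream of the start, whole peak, chr22:28197973-28198147: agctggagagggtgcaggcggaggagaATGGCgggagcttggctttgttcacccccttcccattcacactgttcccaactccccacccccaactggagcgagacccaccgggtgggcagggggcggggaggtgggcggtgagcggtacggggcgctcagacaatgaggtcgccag
NFATC1, YY1 in Huh7, upstream of the start, centre of the peak, chr18:77154363-77154662: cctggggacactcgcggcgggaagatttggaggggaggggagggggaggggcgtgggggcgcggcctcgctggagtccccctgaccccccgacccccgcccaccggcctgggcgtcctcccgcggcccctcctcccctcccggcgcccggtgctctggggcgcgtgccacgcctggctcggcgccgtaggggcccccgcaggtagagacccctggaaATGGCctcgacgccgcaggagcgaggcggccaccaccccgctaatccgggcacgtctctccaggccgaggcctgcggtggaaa
RFX4, INO80 in Huh7, intronic, centre of the peak, chr12:106978961-106979260: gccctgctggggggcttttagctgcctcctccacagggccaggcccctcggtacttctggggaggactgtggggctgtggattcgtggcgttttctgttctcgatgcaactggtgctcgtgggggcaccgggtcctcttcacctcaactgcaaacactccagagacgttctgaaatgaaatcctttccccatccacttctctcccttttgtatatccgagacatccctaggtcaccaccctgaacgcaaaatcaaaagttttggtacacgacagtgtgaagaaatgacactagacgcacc
DHH, INO80 in Huh7, over the end of a coding exon and the adjoining intron, centre of the peak, chr12:49484177-49484476: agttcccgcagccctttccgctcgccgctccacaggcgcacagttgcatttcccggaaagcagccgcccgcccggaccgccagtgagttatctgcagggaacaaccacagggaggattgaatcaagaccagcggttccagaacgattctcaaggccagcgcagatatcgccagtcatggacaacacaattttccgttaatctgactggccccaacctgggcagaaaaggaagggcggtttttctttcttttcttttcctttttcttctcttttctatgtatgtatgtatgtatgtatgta

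Of these 9 stretches, 2 hold GCCAT, those of MN1 and NFATC1, and none holds the longer form GCCATNTT, which contains the core. G and C made up 76.3%, 70.5% and 68.0% of the YY1 stretches of PDGFA in Huh7, 62.5% of the intronic one in HepG2, 54.3% of the RFX4 stretch and 51.0% of the DHH stretch. In central windows of 300 bp, GCCAT was present at 54.9% of all 39293 YY1 peaks in HepG2 and at 48.5% of all 21554 in Huh7, and at 35.8% and 36.8% of the INO80 peaks without YY1. GCCATNTT was present at 10.8% and 10.7% of the YY1 windows. Over their whole length, 5 of the 10 YY1 peaks under INO80 in the gene windows in Huh7 held GCCAT, among them the outermost pair at PDGFA, and 4 of the 6 in HepG2 did. GCCATNTT was in none of these 16 peaks or of the other 10 YY1 peaks in the windows.

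INO80 covered all 10 genes in each line. The window of a gene is its annotated span with 10 kb on either side, and the covered length is the number of base pairs of the window that lie under a peak. INO80 covered 7005 bp at PDGFA in HepG2 and 6856 bp in Huh7. SKOR1 had the longest cover, 10277 bp over 3 peaks in HepG2 and 7976 bp over 6 peaks in Huh7. NFATC1 had 7680 bp in HepG2 against 2889 bp in Huh7, the widest gap among the 10. MN1, a coregulator gene first found in a meningioma, had 5893 bp in HepG2 and 5244 bp in Huh7, and RFX4, a regulator of brain development and cilia in mice, had 5331 bp in HepG2 and 5084 bp in Huh7. For scale, the median over all coding genes was 1037 bp in HepG2 and 291 bp in Huh7, and liver genes differed widely, with 16721 bp at ALB in HepG2 against 747 bp in Huh7.

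Of the 6 genes chosen in Huh7, RFX4, HRK, SIM2 and HELT had longer cover in HepG2. FLRT2, whose protein guides cell adhesion and repulsion, had the reverse, 2836 bp in HepG2 against 4984 bp in Huh7. DHH, the Hedgehog ligand of testis and peripheral nerve, had 4113 bp in HepG2 and 4129 bp in Huh7. HRK, a BH3-only activator of cell death, had 4447 bp in HepG2 and 3776 bp in Huh7. SIM2, a bHLH-PAS factor of the nervous system, had 6973 bp in HepG2 and 3721 bp in Huh7. HELT, a bHLH repressor needed for midbrain neurons in mice, had 4566 bp in HepG2 and 3564 bp in Huh7. Cover was thus longer in HepG2 at 8 genes and shorter at 2, FLRT2 and DHH, where DHH differed by -0.01 on the log2 scale. Longer cover in HepG2 was usual, with a median log2 ratio of 0.97 over the 11354 coding genes with INO80 in both lines.

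**Figure D1:**
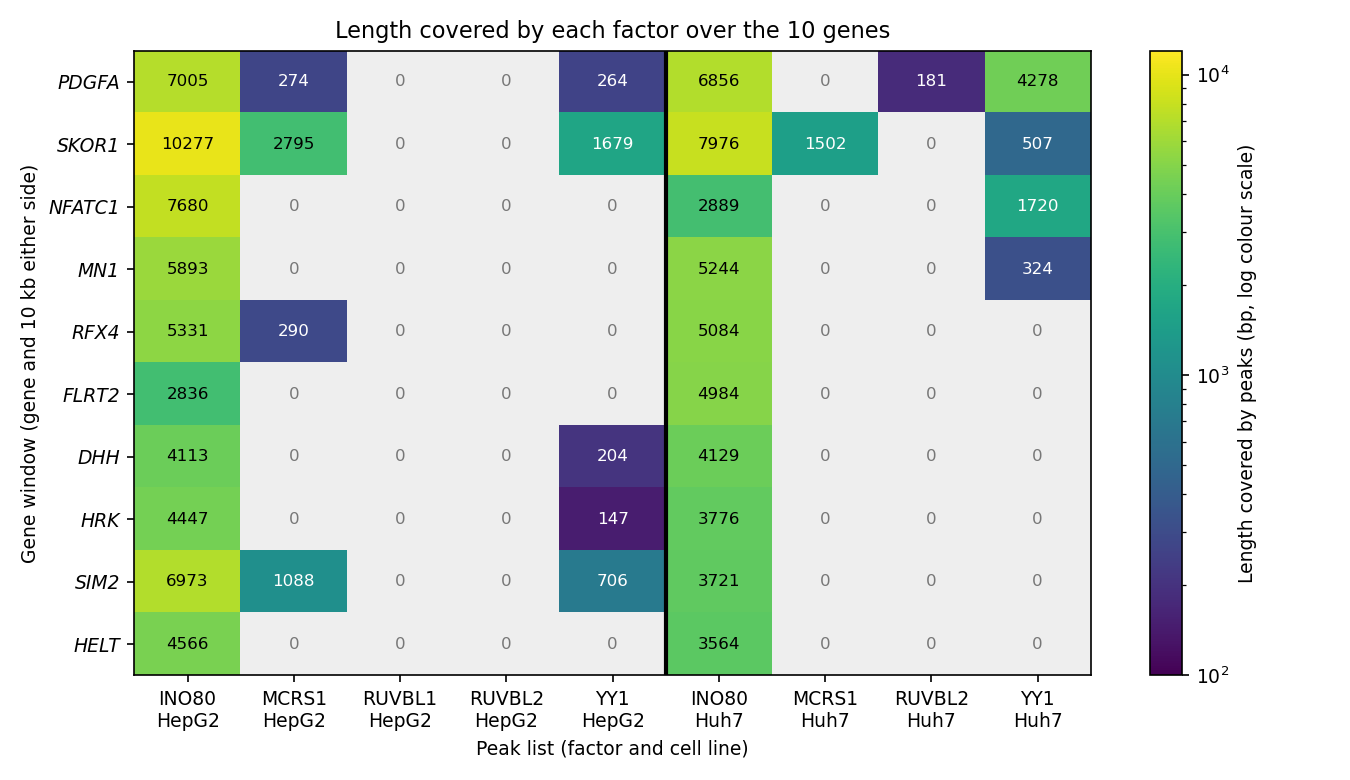
Length in bp covered by the peaks of each of the 9 lists (columns, HepG2 left of the black line and Huh7 right of it) in the window of each gene (rows), on a log colour scale, with 0 in grey. The 2 INO80 columns are filled for all 10 genes, from 2836 to 10277 bp in HepG2 and from 2889 to 7976 bp in Huh7, while the partner columns are mostly 0.

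The ratio of cover between the lines uses the INO80 widths by which the genes were chosen. A gene chosen for a wide peak in Huh7, as 6 of the 10 were, has a lower ratio of HepG2 over Huh7 by that choice, so the values below are a description. The median log2 ratio of covered length, HepG2 over Huh7, was 0.20 over the 10 genes and 0.97 over the 11354 coding genes with INO80 in both lines. Cover was at least 2-fold longer in HepG2 at 1 gene of the 10, NFATC1 (2.66-fold), against 49% of those coding genes, and at least 2-fold shorter at none, against 3.09%. Among the 1662 coding genes with at least 2000 bp covered in both lines, the median was 0.46 and 21% were at least 2-fold longer. DHH, PDGFA, RFX4, HRK, MN1 and HELT also had mostly the same base pairs covered in each line. The shared length divided by the joint length (Jaccard index) was 0.996 at DHH, 0.936 at PDGFA, 0.879 at RFX4, 0.849 at HRK, 0.814 at MN1, 0.781 at HELT, 0.513 at SIM2, 0.449 at SKOR1, 0.432 at FLRT2 and 0.376 at NFATC1. The median was 0.797 over the 10 genes and 0.548 over those 1662 coding genes, and nothing is read from that difference.

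**Figure D2:**
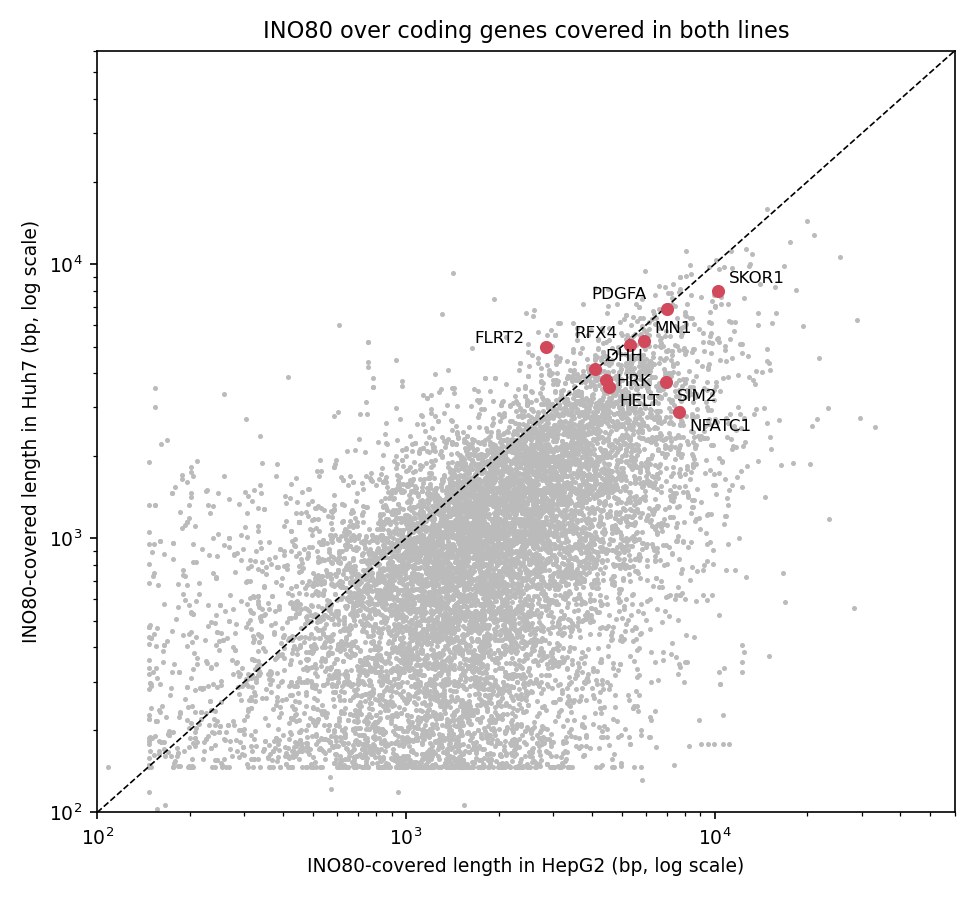
INO80-covered length in HepG2 (x axis) against Huh7 (y axis) for coding genes covered in both lines (grey points, bp, log scales, 14 genes under 100 bp in a line not drawn), with the 10 genes in red and equal length as the dashed line. DHH and PDGFA lie on the line, FLRT2 above it and NFATC1 farthest below it.

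YY1 cover differed most between the lines at PDGFA, with 264 bp in HepG2 against 4278 bp in Huh7. A single INO80 peak covered its start in each, at chr7:556200-563204 in HepG2 and chr7:556045-562900 in Huh7, reaching from 3271 bp before to 3733 bp after the start in HepG2 and from 2967 bp before to 3888 bp after it in Huh7. The edges differed by 155 and 304 bp. In HepG2 no YY1 peak lay under it, and the YY1 peak of 264 bp in the window was 16414 bp downstream of the start, within the gene. In Huh7 the window held 7 YY1 peaks, of which 5 lay under the INO80 peak and covered 3790 bp, 55.3% of its width. Counted from the gene start, they ran from -2647 to -1352 bp, from -742 to 238 bp across the start, from 912 to 1245 bp, from 1823 to 2114 bp and from 2858 to 3744 bp. Of all 15303 INO80 peaks in Huh7 this is the 1 peak that held as many as 5 YY1 peaks, which is 0.00653%, and in HepG2 13 of 23665 held 5 or more. A wider peak has room for more YY1 peaks, and this one was the 4th widest in Huh7. Its share of 55.3% under YY1 was near the 56.6% over the length of all INO80 peaks in Huh7.

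The other subunits were nearly absent from PDGFA. In HepG2 an MCRS1 peak of 274 bp lay at chr7:556527-556800 near the inner edge of the INO80 peak, and in Huh7 there was none. That position is wholly under the innermost of the 5 YY1 peaks that Huh7 had there. A RUVBL2 peak of 181 bp (chr7:560120-560300) was present in Huh7 upstream of the start, inside the YY1 peak that crosses it, and RUVBL2 and RUVBL1 had no peak in HepG2. The intronic YY1 peaks of the lines, chr7:543256-543519 in HepG2 and chr7:543464-543804 in Huh7, shared 56 bp, and INO80 covered neither. YY1 in HepG2 had the longer list, of 39293 peaks against 21554 in Huh7.

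**Figure D3:**
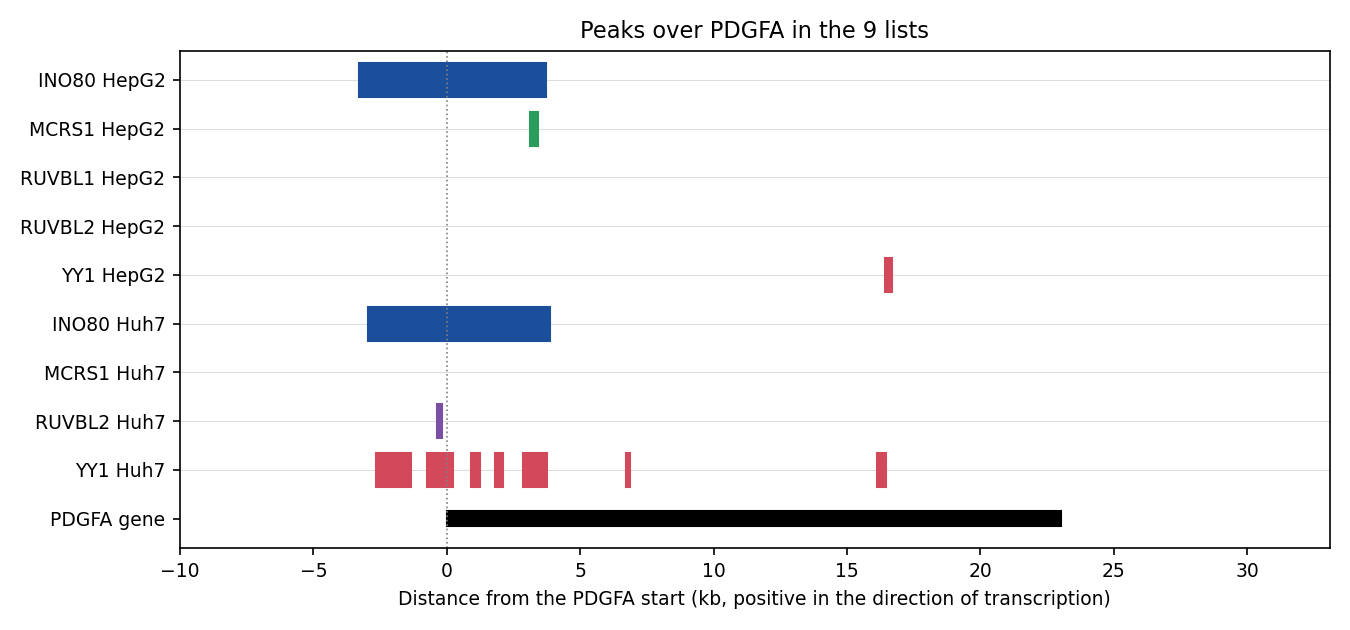
Peaks of the 9 lists over PDGFA, drawn to scale by distance from the gene start (kb, positive in the direction of transcription), with the gene as a black bar. INO80 covers the same stretch about the start in both lines, with 5 YY1 peaks under it in Huh7 and none in HepG2.

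NFATC1 and MN1, also chosen in HepG2, had YY1 under INO80 in Huh7. NFATC1, a calcium-regulated transcription factor of T cells and heart valves, had 1 INO80 peak of 7524 bp in HepG2 (chr18:77153118-77160641) that covered all 10 of its annotated coding starts within 4785 bp downstream. In Huh7 INO80 was in 3 pieces of 2056, 368 and 465 bp. The first, upstream of the start, was covered over 1359 bp by a YY1 peak. The downstream group of starts had no INO80 in Huh7, and a YY1 peak of 197 bp (chr18:77160282-77160478) lay over 4 of them. MN1 had 1 INO80 peak in each line, of 5893 bp in HepG2 (chr22:28192763-28198655) and 5244 bp in Huh7 (chr22:28193657-28198900), over its start and 3769 bp of coding sequence in HepG2 and 2875 bp in Huh7. The MN1 window held no YY1 peak in HepG2, and in Huh7 YY1 peaks of 175 and 149 bp stood on either side of the start, covering 6.18% of the INO80 peak together.

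SKOR1, a corepressor gene of spinal cord interneurons in mice, was covered in pieces. In HepG2 the widest INO80 peak, of 7624 bp (chr15:68113139-68120762), began 1097 bp after the gene start and held no partner. In Huh7 that stretch held peaks of 309, 401 and 2593 bp without partners, and just beyond its end came one of 211 bp with a YY1 peak of 156 bp under it. Over the 3′ end of the gene the widths were the other way round, and INO80 covered 303 bp in HepG2, 201 bp of it with YY1, against 2416 bp in Huh7 with no partner. INO80 was also present beyond the gene, where the window holds RNU6-1, a gene of the U6 spliceosomal RNA. That peak was 2350 bp wide in HepG2 and 2046 bp in Huh7, and it was the 1 INO80 peak of any window with MCRS1 and YY1 in both lines. The MCRS1 peak there was 1942 bp wide in HepG2 and 1502 bp in Huh7. YY1 had peaks of 728 and 275 bp in HepG2 and 1 of 351 bp in Huh7, and the RNU6-1 start lay under the 728 bp peak in HepG2 and under no YY1 peak in Huh7. U6 genes have near-identical copies, so reads within RNU6-1 itself cannot be placed with certainty. Whether this affects the rest of the wider peak was not examined.

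Of the 6 genes chosen in Huh7, 4 had no YY1 under INO80 in HepG2 either. RFX4, FLRT2 and HELT had no YY1 peak anywhere in their windows in either line, as had 17.9% of all coding genes. HRK had 1 YY1 peak of 147 bp in HepG2, 6576 bp after the start and apart from INO80. At DHH a YY1 peak of 204 bp in HepG2 shared 23 bp with the end of the INO80 peak. At SIM2 a YY1 peak of 174 bp in HepG2 lay over the start, within an MCRS1 peak of 922 bp and under the INO80 peak of 5564 bp. A second INO80 peak of 1235 bp in HepG2, 48150 bp downstream, also held YY1 and MCRS1 and was absent in Huh7. In both lines together, RFX4, FLRT2, HRK and HELT are the 4 genes with no YY1 under any INO80 peak, and SKOR1 is the 1 gene with YY1 under INO80 in each.

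**Figure D4:**
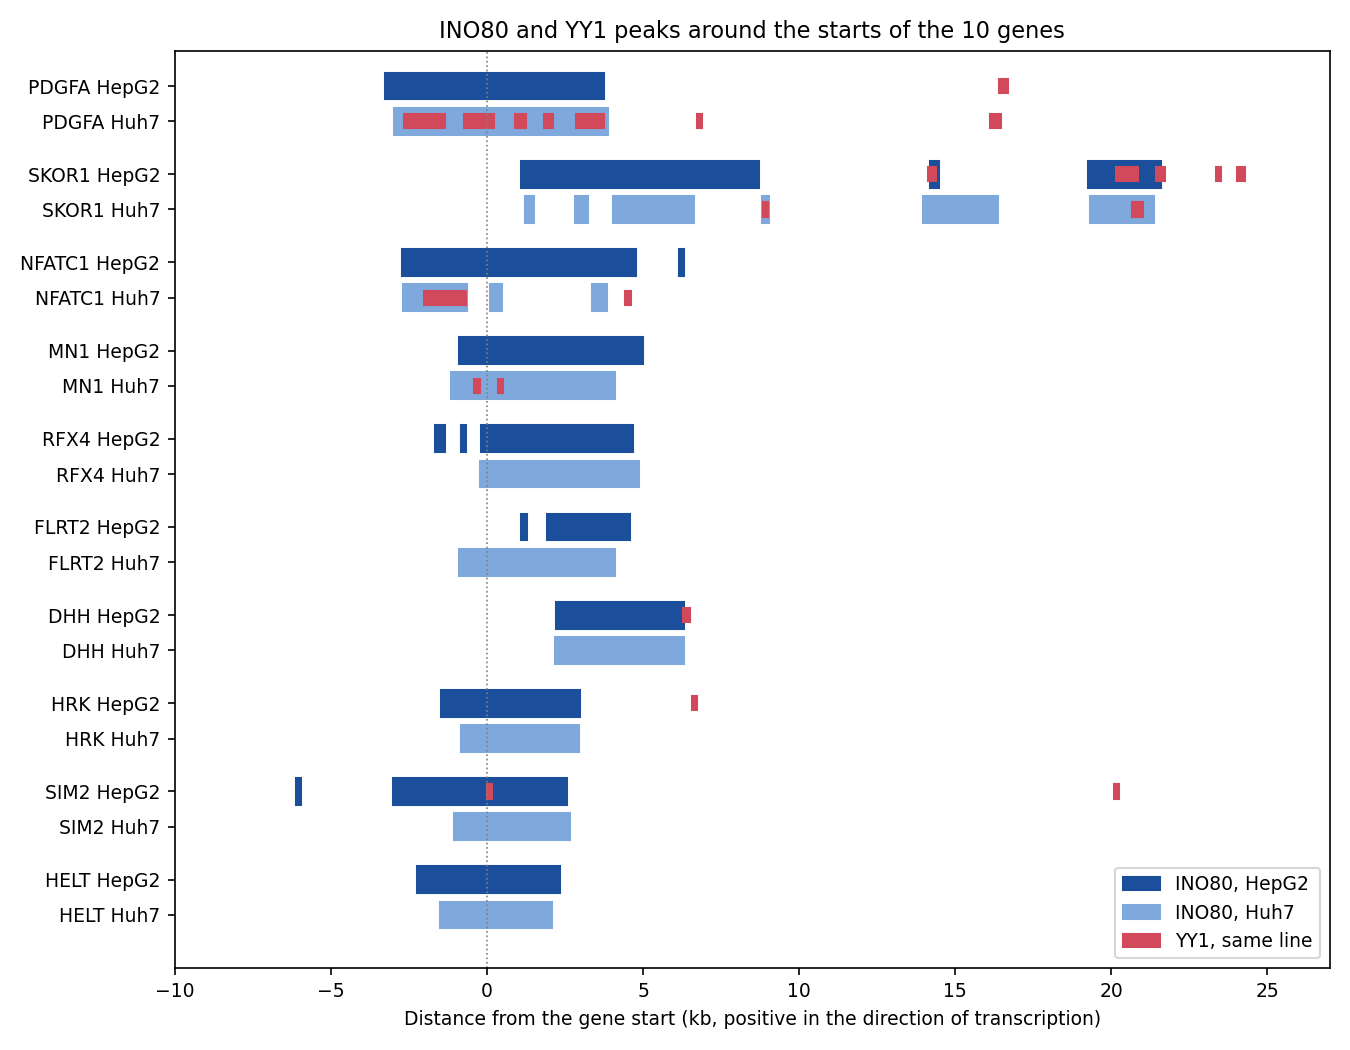
INO80 peaks in HepG2 (dark blue) and Huh7 (light blue) and YY1 peaks of the same line (red) by distance from the start of each gene, from 10 kb upstream to 27 kb downstream (kb, positive in the direction of transcription), so peaks farther inside long genes are not drawn. Red meets blue at PDGFA, NFATC1 and MN1 in Huh7, at SIM2 and the edge of DHH in HepG2 and at SKOR1 in each line, and RFX4, FLRT2 and HELT have no red bar.

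The state of YY1 in the line that did not choose a gene can be set against other wide INO80 peaks. Of the 4 widest peaks chosen in HepG2, 3 overlapped an INO80 peak with YY1 in Huh7, those of PDGFA, NFATC1 and MN1. Among all INO80 peaks without YY1 in HepG2 that overlapped INO80 in Huh7, the share was 42.9% of those of at least 5893 bp (3 of 7, these members included) and 28.4% of those of at least 2000 bp (71 of 250, 95% Wilson interval 23.2 to 34.3%). Of the 6 widest peaks chosen in Huh7, 2 had YY1 in HepG2, those of DHH and SIM2. The share was 30% of all such peaks of at least 3564 bp (3 of 10, these 6 members included). It was 41.7% of those of at least 2000 bp (30 of 72, 31.0 to 53.2%). The intervals cover counting error only. The DHH overlap rests on 23 bp.

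Wide INO80 peaks usually carry the other subunits, and those of the 10 genes mostly did not. In HepG2 the widest INO80 peak of each gene overlapped MCRS1 at 2 of 10 genes, PDGFA and SIM2, while 87.4% of the 1228 INO80 peaks at least as wide as the narrowest of them and 70.4% of all INO80 peaks did. RUVBL2 was at 0 of the 10, against 77.9% of those wide peaks and 41.1% of all. RUVBL1 was also at 0, against 53.8% and 18.8%. In Huh7 MCRS1 was at 0 of the 10, against 67.7% of 620 peaks at least as wide and 31.8% of all, and RUVBL2 at 1, PDGFA, against 59.5% and 17%. YY1, by which the genes were chosen, was at 2 of 10 in HepG2, against 88% of the wide peaks and 70.3% of all, and at 3 of 10 in Huh7, against 89% and 69%. Most of the wide peaks compared held YY1, and the shares of the subunits in wide peaks without YY1 were not computed. Whether the lack of the subunits goes with the lack of YY1 that chose the genes was not tested. With 10 chosen genes these shares are descriptions.

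**Figure D5:**
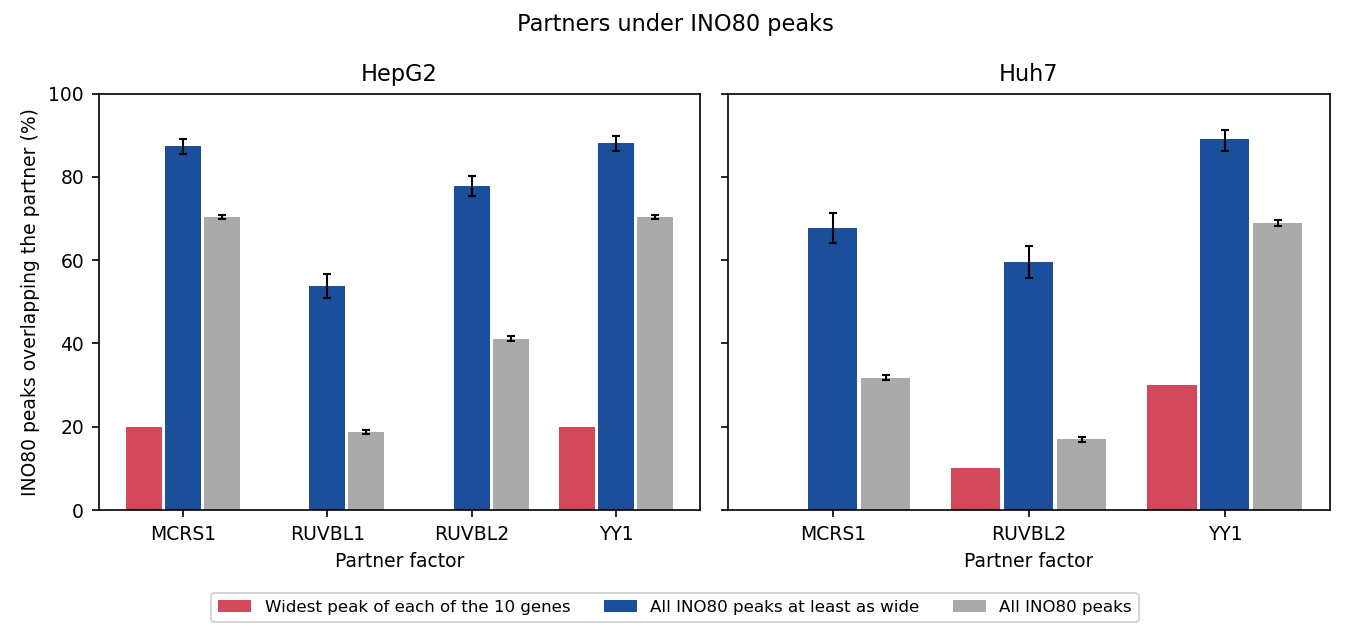
Percentage of INO80 peaks that overlap each partner by at least 1 bp in HepG2 (left) and Huh7 (right), for the widest peak of each of the 10 genes (red), all INO80 peaks at least as wide (blue) and all INO80 peaks (grey), with 95% Wilson intervals on blue and grey. Red lies at 20% or lower for MCRS1, RUVBL1 and RUVBL2 in HepG2 and at 10% or lower for MCRS1 and RUVBL2 in Huh7. The blue bars stand higher there, at 53.8% to 87.4%, in sets that mostly hold YY1 (88% in HepG2, 89% in Huh7).

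Over whole windows the picture was alike. A peak of MCRS1 lay in 4 of the 10 windows in HepG2, against 68.8% of all coding-gene windows, and in 1 in Huh7 (SKOR1), against 31.4%. RUVBL1 and RUVBL2 were in 0 windows in HepG2, against 27.1% and 50.1%, and RUVBL2 was in 1 in Huh7, against 20.1%. YY1 was in 5 in HepG2, against 79.7%, and in 4 in Huh7, against 65.9%. INO80 was in all 10, against 73.8% in HepG2 and 60.3% in Huh7. Of the INO80-covered length in the 10 windows, YY1 also covered 2.47% in HepG2 and 12.4% in Huh7, where the value without PDGFA was 5.29%. The direction between the lines turned with every peak set to 200 bp, at 11.8% in HepG2 and 5.47% in Huh7. SKOR1 held 1098 bp of the length under YY1 in HepG2, and without it the share there was 0.745%. Over all INO80 peaks YY1 covered 52.8% in HepG2 and 56.6% in Huh7. MCRS1 covered 5.56% in HepG2 and 3.11% in Huh7, against 66.5% and 21.5% over all INO80 peaks. Of that length SKOR1 held 1926 bp in HepG2 and all 1502 bp in Huh7, at the peak that holds RNU6-1. Reads within RNU6-1 itself cannot be placed with certainty, and the effect on the rest of that peak was not examined. Without SKOR1 the shares were 2.79% and 0%. With the 3322 widest peaks of each list alone, MCRS1 lay in 1 window and YY1 in 0 in HepG2.

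The widest INO80 peak lay over the gene start at 7 of the 10 genes in each line. Of 30 annotated coding starts, INO80 covered 24 in HepG2, against 47.5% of the starts of all coding genes and 75.6% of those of coding genes with an INO80 peak of at least 2000 bp. In Huh7 it covered 17 of 30, against 24.9% and 64.3%. NFATC1 alone has 10 of the 30 starts, all covered in HepG2 and most of them bare in Huh7. The higher count in HepG2 comes from that gene. A covered start was found at 9 of the 10 genes in HepG2, against 52.7% and 86.5%, and at 9 in Huh7, against 28.9% and 75.8%. The shares of starts were thus near those of all coding genes with wide peaks. The first start of SKOR1 was bare in both lines, and DHH was the gene with no covered start. Its INO80 peak lay wholly inside the gene, from 2198 to 6310 bp after the start in HepG2 (chr12:49482274-49486386) and from 2194 to 6322 bp in Huh7, over 885 bp of coding sequence, and the start itself was free in both lines. The edges differed by 12 and 4 bp. Of 433 pairs of INO80 peaks of at least 2000 bp that match one to one between the lines, 3.93% had both edges within 50 bp, and 4, DHH included, were as close as DHH. At FLRT2 the lines differed over the start. INO80 began 1100 bp after the gene start in HepG2 and 887 bp before it in Huh7, and the 2 starts at the gene's beginning were covered in Huh7 alone.

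RFX4, HRK, HELT and SIM2 had 1 INO80 peak over the start in each line, and at HRK, HELT and SIM2 it reached farther upstream in HepG2. At RFX4 the downstream edge differed by 180 bp and the upstream edge by 32 bp (chr12:106976601-106981472 in HepG2, chr12:106976569-106981652 in Huh7). At HRK the downstream edges differed by 18 bp, and INO80 began 1483 bp upstream in HepG2 and 830 bp in Huh7. HELT was covered from 2238 bp upstream in HepG2 and 1494 bp in Huh7, to 2327 and 2069 bp downstream, over 981 and 771 bp of its coding sequence. SIM2 was covered from 3007 bp upstream in HepG2 and 1069 bp in Huh7, to 2556 and 2651 bp downstream. No other protein-coding gene starts within any of the 10 windows. Among 15 non-coding starts, those of PDGFA-DT, RNU6-1 and the unnamed long non-coding RNA genes on the opposite strand within DHH and SIM2 lay under INO80 in each line, and that of FLRT2-AS1 in Huh7 alone.

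By width among all INO80 peaks, the genes ranked differently in the lines. The PDGFA peak was the 56th widest in HepG2 and the 4th widest in Huh7. SKOR1 and NFATC1 ranked 39 and 40 in HepG2 and 301 and 620 in Huh7. MN1 ranked 106 in HepG2 and 19 in Huh7, and FLRT2 1227 and 28. The widest peaks of the 10 genes were rich in CpG, with a ratio of observed to expected CpG from 0.597 at DHH to 0.800 at NFATC1 in HepG2 and from 0.597 to 0.814 at PDGFA in Huh7. The medians were 0.735 and 0.742. They were close to those of all INO80 peaks at least as wide, these members included. Those were 0.717 without YY1 and 0.708 with it in HepG2, and 0.751 and 0.745 in Huh7. The letters GCCAT occurred 1.21 and 1.15 times per kb in the widest peaks of the genes (medians), 1.20 and 1.12 times in such peaks without YY1, and 1.48 and 1.52 times in those with YY1. The longer form GCCATNTT was in 40.0% of the widest peaks of the genes in HepG2 and 30.0% in Huh7. It was in 21.8% and 20.6% of such peaks without YY1, and in 47.1% and 42.8% of those with YY1. By the core the members' medians were thus nearer to those of the peaks without YY1. Most of the members' peaks lack YY1 by the choice of genes and are counted in that set, so nothing is read from this likeness. In HepG2 single genes ranged from 0.377 per kb at FLRT2 to 2.49 at SKOR1. The longer form was counted per peak, and the members' peaks were wider, with medians of 5218 bp in HepG2 and 3952.5 bp in Huh7. The medians were 3087 and 2520 bp without YY1 and 3419 and 2572 bp with it. The shares of the longer form were not adjusted for width, so no order is read from them. In HepG2 SKOR1 had 19 copies of GCCAT in 7624 bp and no YY1 there.

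Where genes related to the 10 by family or pathway had a wide INO80 peak, it held YY1 at 24 of 30 in HepG2 and 8 of 10 in Huh7, against 88.7% and 91.3% of all coding genes with such a peak. Of 67 listed relatives, INO80 was in the window of 63 in HepG2 and 56 in Huh7. The widest INO80 peak was at least 2000 bp at 30 of them in HepG2 and 10 in Huh7, against 16.7% and 4.84% of all coding genes. At 6 of the 67 in HepG2 and 2 of the 67 in Huh7 such a peak lacked YY1, against 1.88% and 0.419% of all coding genes. A window can also hold other genes, and no test was made of these counts. The relative with such a peak in each line was FLRT1 (2659 bp in HepG2, 2727 bp in Huh7), and it was also found at 5 of the 10 genes themselves, SKOR1, RFX4, FLRT2, HRK and HELT, against 0.227% of coding genes, a contrast that chose them.

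Among ligands and receptors of the PDGF family, PDGFB, the second classical ligand, had an INO80 peak of 4759 bp over 3 YY1 peaks in HepG2 and one of 2546 bp with no YY1 in Huh7, the reverse of PDGFA. PDGFRA, a receptor for the PDGFA chain, had 4598 bp with YY1 in HepG2 and 1467 bp without it in Huh7. Of the Hedgehog genes, SHH had 4810 bp in HepG2 and 2853 bp in Huh7 with YY1 in each, and IHH had 3270 bp with YY1 in HepG2 and 553 bp without it in Huh7. Further wide peaks with YY1 in HepG2 lay in windows of PTCH1, a receptor, SUFU, an inhibitor, and GLI2, a transcription factor of the pathway. That of SUFU lay from 138316 to 142266 bp after the SUFU start. GLI3 had one of 2111 bp without YY1.

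Among relatives of HRK, the widest peak was in the window of BAX and did not reach the BAX start. Its width in HepG2 was 9630 bp, and it lay from 5045 to 14674 bp after that start. The Huh7 peak was 4498 bp wide and lay from 8525 to 13022 bp after the start. Each line had MCRS1, RUVBL2 and YY1 under this peak. BCL2L11, BBC3, BCL2L1 and MCL1 had peaks of 3173 to 4572 bp with YY1 in HepG2, and the one near BAD, of 2166 bp, lacked it. Among relatives of HELT, HES1 (4696 bp), HES7 (5131 bp), BHLHE40 (3613 bp), HES4 (3446 bp) and HEY2 (2832 bp) had YY1 in HepG2, and HES5 (2794 bp) and BHLHE41 (2252 bp) did not. In the SKOR1 family SKI, a corepressor of TGF-beta signalling, had 5718 bp with YY1 in HepG2. LBX1, a homeobox factor that SKOR1 binds in mice, had 3242 bp without YY1. The windows of NFATC3, NFAT5, RFX1, RFX7, EPAS1 and UNC5B held peaks of 2030 to 3339 bp with YY1 in HepG2. That of NFATC3 lay from 149616 to 152954 bp after the NFATC3 start. In Huh7 peaks of at least 2000 bp with YY1 were also in the windows of NFATC3, UNC5B, BCL2L11, HES1, HES7 and BHLHE40. They were from 2077 to 4624 bp wide.

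The genes whose 9 covered lengths were most like those of PDGFA were LHX2, HMX3 and ZIC2, at Euclidean distances of 0.613, 0.644 and 0.676 on the log10(bp + 100) scale over the 9 lists. INO80 covered 6213 bp at LHX2 in HepG2 and 4230 bp in Huh7, and YY1 258 and 1816 bp. Nearest to SKOR1 were MEIS2 (0.541), EOMES (0.715) and PRDM12 (0.723). Among PDGFA, SKOR1 and HELT, the closest likeness was at HELT, with FEZF1 at 0.032, NKX1-2 at 0.108 and PRDM6 at 0.189. HELT had no peak of the other factors in either line, so these distances rest on the INO80 lengths and that absence. The other members were not compared in this way. FEZF1 had 4443 bp of INO80 in HepG2 and 3824 bp in Huh7 and no peak of the other factors in either line.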

How the data were processed

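The authors deposited 1 filtered peak list for each factor and line, with start and end positions on hg19 and dots in place of a score, per the file headers and values. Per the submitters' processing notes, Bowtie2, SAMtools, MACS2, bedtools and deepTools were used, with no versions. No source used here says whether libraries were pooled before peaks were called. A table of fly spike-in tags was not used here. All 9 lists fit the GRCh37 chromosome lengths, with 0 peaks past an end.

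Positions were made 1-based. Genes, with coding starts from the basic set, came from GENCODE release 44 lifted to GRCh37, and sequence from GRCh37. Peaks overlapped when they shared 1 bp or more. Interval code was tested on simulated data (200 of 200 regions recovered). Python 3.11.15, pandas 2.3.3 and pysam 0.24.0 were used.

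The members and lists were chosen with earlier results of these data known. Named were all members, listed relatives with an INO80 peak of at least 2000 bp in either line, coding genes starting in a window, and the 3 genes nearest in pattern to PDGFA, SKOR1 and HELT. UNCX, GAD1 and non-coding genes were named after their values were seen.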

Additional observations from a re-analysis of the deposited data

How the results depend on the processing

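No paired analysis was possible because there was a single list for every factor in a line, and leaving out a replicate was impossible for the same reason. Under 10 alternative settings 118 of 158 values stayed within the limits set. The causes of the values outside those limits were not tested. The median log2 ratio of cover, HepG2 over Huh7, was 0.2 in the main setting. It fell to 0 within 1 kb of the coding starts and to 0 with every peak set to 200 bp. Longer cover in HepG2 was thus not seen by this median under those settings. It stayed positive under the others. The setting without SKOR1 and all settings of the MCRS1 share were chosen after seeing the data. The median width has no value with peaks of 200 bp.

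Of the INO80-covered length, YY1 covered 2.47% in HepG2 and 12.4% in Huh7. The HepG2 share was 0.987% with 5 kb flanks, 1.3% with none, 0.778% within 1 kb of the coding starts, 1.26% over the wider 50% of each list, 0% over the 3322 widest peaks of each list, 11.8% with every peak set to 200 bp and 0.745% without SKOR1. The Huh7 share was 6.05% with no flank, 5.71% over the 3322 widest, 5.47% with 200 bp peaks and 5.29% without PDGFA. The share was thus higher in HepG2 with 200 bp peaks and lower in HepG2 under the other settings.

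INO80 peaks with YY1 made up 27.8% in HepG2 and 29.4% in Huh7. In HepG2 they made up 10% within 1 kb of starts, 8.33% over the wider 50%, 0% over the 3322 widest and 5.56% where YY1 had to cover 50% of the INO80 peak. The direction turned with no flank (28.6% in HepG2, 20% in Huh7), with 200 bp peaks (16.7% and 5.88%) and without PDGFA (29.4% and 25%), so no order of the lines is read from it. MCRS1 covered 5.56% in HepG2 and 3.11% in Huh7. These were 3.47% and 1.12% with 5 kb flanks, 1.78% and 0% with none, 3.36% and 0% with 200 bp peaks and 2.79% and 0% without SKOR1. The HepG2 share was 3.4% over the 3322 widest, and the Huh7 share 0% within 1 kb of starts.

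Genes with MCRS1 in HepG2 (4) numbered 1 within 1 kb of starts, 2 over the wider 50% and 1 over the 3322 widest. Genes with YY1 in HepG2 (5) numbered 1, 1 and 0 there. Genes with YY1 in Huh7 (4) numbered 2 over the wider 50% and 2 over the 3322 widest. The gene with MCRS1 in Huh7 was lost (0) with no flank, within 1 kb of starts and without SKOR1. The gene with RUVBL2 in Huh7 was lost (0) with no flank, over the wider 50% and without PDGFA. Depth is unknown, so an absent peak does not show that a factor was absent.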
